A study of Mus musculus with 20 samples.

Results

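The proteasome is the protease complex that degrades ubiquitin-tagged proteins in the cytosol and nucleus. Its genes were read here in liver and subcutaneous white adipose tissue (SAT) of mice with and without surgical removal of visceral fat. The 48 members were taken from the 40440 distinct entries of the deposited count table by gene symbol: 7 alpha-ring genes (Psma1 to Psma7), 4 structural and 3 catalytic genes of the beta ring (Psmb1 to Psmb4, then Psmb5, Psmb6 and Psmb7), 3 inducible catalytic genes (Psmb8, Psmb9, Psmb10), 6 ATPases and 12 other subunits of the 19S cap, 3 chaperones of cap assembly, 5 chaperones of core assembly, 4 activators (Psme1 to Psme4) and Nfe2l1, a transcription factor of the family. The members were chosen by symbol with no expression threshold, but the family and its contrast of constitutive with inducible subunits were proposed with the VAT-removed minus sham and SAT minus liver differences of these libraries already known, so every count below is a description of this list and not independent support for it. All 48 passed the filter on low counts in each comparison.

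All mice were male C57BL/6J, the common inbred strain, 8 to 9 months old at surgery. They ate regular chow before the operation and a high-fat diet afterwards, so the diet was shared by all groups. In the VAT-removed groups the epididymal visceral fat pads were taken out, and in the sham groups the abdomen was opened and the pads were left. Total RNA depleted of ribosomal RNA was sequenced from 5 libraries each of sham liver, VAT-removed liver, sham SAT and VAT-removed SAT. The labels do not state how long after surgery tissue was taken or which libraries came from the same mouse, so p-values measure the spread between these libraries.

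In the working proteasome, proteins enter a barrel, the 20S core, whose outer alpha rings form a gate and whose inner beta rings carry the proteolytic sites. The 19S cap binds ubiquitin, removes it and unfolds the substrate with a ring of ATPases, while the PA28 and PA200 activators open the gate without ATP. Interferon-gamma induces Psmb8, Psmb9 and Psmb10, which replace Psmb5, Psmb6 and Psmb7 in newly built cores to form the immunoproteasome, and Nfe2l1 (also called NRF1) raises the constitutive genes together when proteasome activity falls short.

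The promoter windows of 3 members that recur in the results are shown first, since they carry letters of elements known to bind factors of these 2 routes. They were picked for a match and for their values below, so they do not represent all members that hold a core. They come from RefSeq's GRCm38.p6 annotation, run from 250 bases before to 50 bases after the annotated start, and are written 5′ to 3′ on the strand of the gene. Capitals in Psmb5 (chr14:54617946-54618245, minus strand) and Psme4 (chr11:30771525-30771824, plus strand) mark the core of the antioxidant response element, TGACNNNGC on either strand, which NRF-family factors bind. Capitals in Psme1 (chr14:55578244-55578543, plus strand) mark the core of the interferon-stimulated response element, which is GAAA, any 2 bases and GAAA again on either strand.
Psmb5: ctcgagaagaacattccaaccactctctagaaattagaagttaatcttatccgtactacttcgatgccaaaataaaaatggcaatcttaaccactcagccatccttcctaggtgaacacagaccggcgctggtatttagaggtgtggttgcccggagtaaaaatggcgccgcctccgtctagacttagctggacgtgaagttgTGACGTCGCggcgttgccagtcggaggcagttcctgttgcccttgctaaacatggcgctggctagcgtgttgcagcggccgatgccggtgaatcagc
Psme4: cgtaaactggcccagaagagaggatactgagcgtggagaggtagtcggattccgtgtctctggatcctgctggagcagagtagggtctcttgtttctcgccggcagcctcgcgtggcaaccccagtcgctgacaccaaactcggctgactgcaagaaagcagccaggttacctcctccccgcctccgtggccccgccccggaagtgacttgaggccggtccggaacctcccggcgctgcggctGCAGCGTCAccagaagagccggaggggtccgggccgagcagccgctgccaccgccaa
Psme1: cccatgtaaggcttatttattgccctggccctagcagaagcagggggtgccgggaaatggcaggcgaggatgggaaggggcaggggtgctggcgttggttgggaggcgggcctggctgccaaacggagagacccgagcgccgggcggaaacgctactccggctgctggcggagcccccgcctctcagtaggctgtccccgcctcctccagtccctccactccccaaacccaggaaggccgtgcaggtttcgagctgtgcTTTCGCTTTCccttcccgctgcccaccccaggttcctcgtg
The match begins 47 bases before the start in Psmb5, 7 bases before it in Psme4 and at base 10 after it in Psme1.

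A promoter entry was found for 41 of the 48 members. The antioxidant core was present in 7 of these 41 genes (17.1%), a share near the 14.0% of all 27025 genes with a promoter. The 7 were Adrm1, Psmb5, Psmb6, Psmc6, Psmd12, Psmd9 and Psme4. The interferon core was present in 5 of 41 (12.2%, against 3.99% of all genes), namely Psmb3, Psmd4, Psmd9, Psme1 and Psmg4. The 3 inducible catalytic genes held neither core in this window. Another motif, CCAAT on either strand, was present in 15 of 41 members (36.6%) and in 41.1% of all genes. No match of the antioxidant or interferon core in a member overlapped a match of another of the 3 motifs. A match describes letters in a window, not a bound site.

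Library depth ran from 20307159 to 43618452 counts, and the members together took 0.253% to 0.346% of them. Levels are in CPM, a gene's counts as a share of the effective library size in the usual per-megaread unit, on 1 scale made by TMM normalization (trimmed mean of M values) of all 20 libraries. Markers matched the labelled tissues: the 8 hepatocyte genes summed to at least 77056 CPM in every liver library and to at most 29.9 CPM in every SAT library. The 8 adipocyte genes summed to 2079 to 5372 CPM in liver and 8829 to 19754 CPM in SAT. In sham mice 7 of them were higher and 1 was lower in SAT than in liver, the latter by a log2 difference of -2.25. Their mean log2 CPM was 1.17 to 2.80 in liver and 9.81 to 11.05 in SAT. In SAT, sham libraries 3 and 4 stood apart, with 16 lymphocyte genes summing to 815.1 and 822.2 CPM against 14.6 to 24.3 CPM in the other 8 SAT libraries. Skeletal muscle genes summed to 1820 CPM in sham SAT library 2 and to 893.0, 21077 and 223.5 CPM in VAT-removed SAT libraries 1, 2 and 3, against at most 44.2 CPM in the rest. In sham liver library 5, 22 interferon-response genes had a mean log2 CPM of 6.87, against 3.76 to 4.98 in the other 9 liver libraries. Results that rest on these libraries are given with and without them. In whole tissue, fewer cells of a type and less RNA per cell cannot be told apart.

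Per kilobase of exon, Psmb5 and Psmb6 stood far above their inducible partners in sham liver, and Psmb7 stood closer to its own. Psmb5 averaged 51.4 ± 3.62 CPM per kb in sham liver (SD, n = 5), while Psmb8, which replaces it, averaged 6.29 CPM per kb. Psmb6 averaged 50.8 CPM per kb against 6.65 for Psmb9, and Psmb7 averaged 27.3 against 18.7 for Psmb10, with ranges that overlapped. In sham SAT the constitutive 3 were at 25.6, 28.0 and 16.3 CPM per kb and the inducible 3 at 8.06, 6.45 and 18.8. Several assembly chaperones were among the lowest members: Psmg3 was the lowest of the 48 in all 4 groups, at 2.77 CPM per kb in sham liver and 0.809 in sham SAT, and the 3 cap chaperones lay between 5.21 and 5.27 CPM per kb in sham liver. Nfe2l1 ranked first in both SAT groups, at 93.4 ± 22.0 and 97.1 ± 10.9 CPM per kb (SD, n = 5). Exon lengths are the union over all GENCODE M21 transcripts of a gene, which understates the level of genes with long minor transcripts. The lengths were 899 bases for Psmb5 against 3381 for Psmb8, and 1872 for Psmb6 against 3660 for Psmb9. Without this division the gaps were smaller, with sham liver means of 46.2 against 21.3 CPM and 95.1 against 24.3 CPM. In sham SAT the median ratio of Psmb8 to Psmb5 counts was 1.02. The cap chaperones Psmd5 and Psmd9 had lengths of 7230 and 7248 bases.

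In liver after VAT removal, the constitutive proteasome genes lay slightly below sham as a block. Of the 48 members, 42 had a lower mean and 6 a higher one, and the median log2 difference (VAT removed minus sham) was -0.15, a fold of 0.899. The median over all 17078 genes tested was 0.01, and 47.8% of genes were below 0. No member reached an adjusted p of 0.05 in edgeR's quasi-likelihood test with Benjamini-Hochberg adjustment over all genes (smallest adjusted p = 0.233), and neither did any other gene (0% called). At an unadjusted p under 0.05, edgeR had 24 members lower and 0 higher. That is 50% of the members, where 5.22% of all genes tested were lower and 4.68% higher at this level. With DESeq2 on the same counts, 9 members passed an adjusted p of 0.05, all lower (Psmb3, Psmb5, Psmc2, Psmc4, Psmc5, Psmd5, Psmd7, Psmd14 and Psme4), among 220 genes in all.

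**Figure D1:**
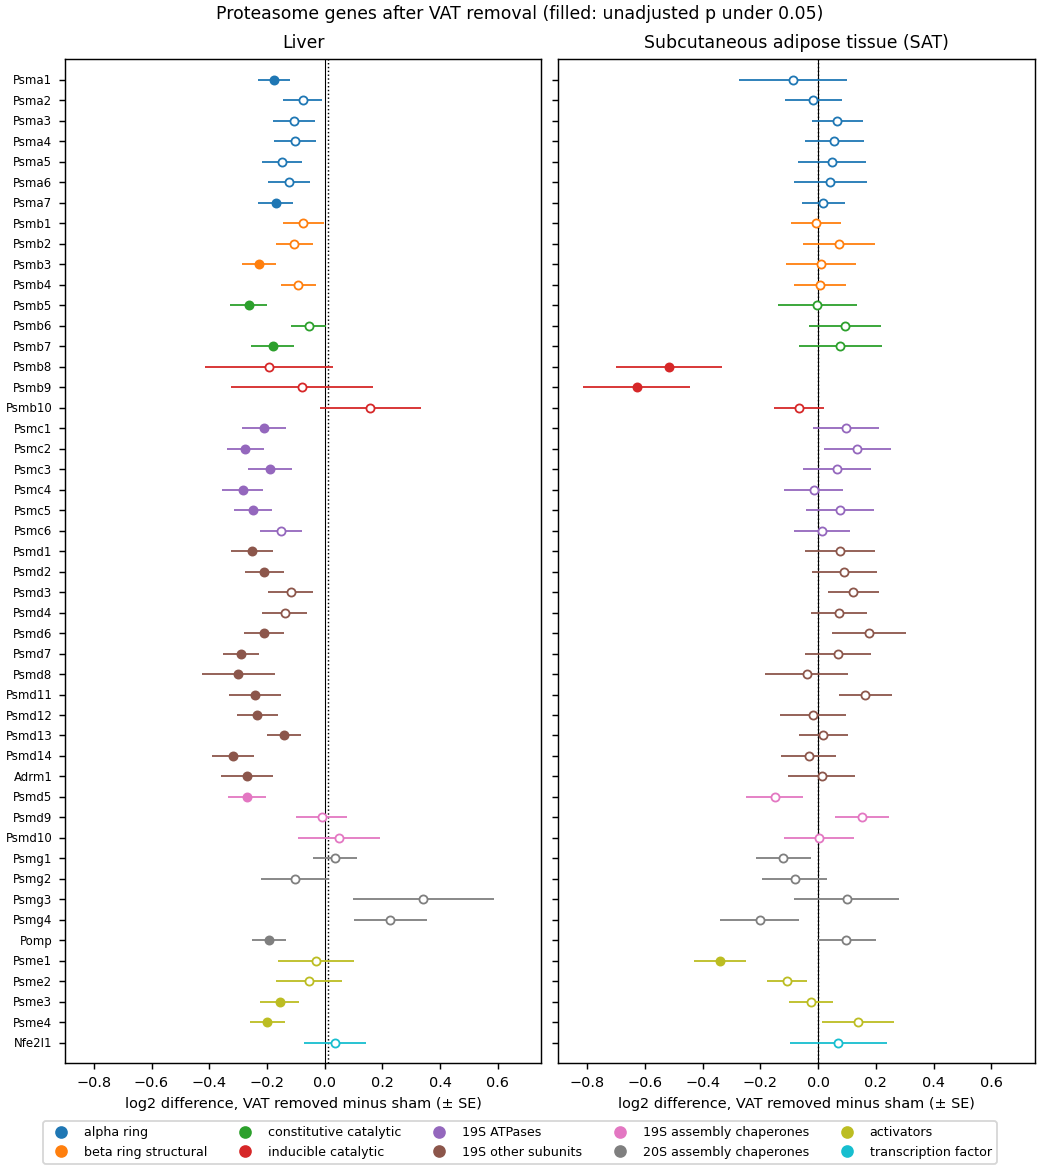
The log2 difference (VAT removed minus sham, ± SE, edgeR) of each of the 48 members is plotted for liver and for SAT. Points are coloured by class and filled where the unadjusted p was under 0.05, and the dotted line is the median of all genes tested. In liver 24 members are filled, all left of 0, and in SAT 3 are filled, all left of 0.

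The position below sham was shared by every part of the core and cap. All 32 constitutive subunits of the 20S core and 19S cap had a lower mean in VAT-removed liver, with log2 differences from -0.32 to -0.06 and a median of -0.18, and 20 of the 32 had an unadjusted p under 0.05. In the mean log2 CPM of these 32 genes, sham liver libraries 1 to 5 were at 6.30, 6.17, 6.26, 6.37 and 6.20. VAT-removed libraries 1 to 5 were at 6.05, 6.01, 6.08, 6.01 and 6.15. The lowest sham library lay above the highest VAT-removed library by a narrow margin. The hepatocyte genes ranged over 12.01 to 12.36 in sham and 11.90 to 12.39 in VAT-removed liver on the same scale, with overlap. Leaving out each library in turn gave 18 to 26 members at an unadjusted p under 0.05 and a median between -0.17 and -0.14.

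The 19S cap gave most of these genes. Among the ATPases that unfold substrates, 5 of 6 were lower at an unadjusted p under 0.05 (Psmc1 to Psmc5, with differences from -0.28 to -0.19), and Psmc6 had a difference of -0.15. Among the other cap subunits, 10 of 12 were lower at this level. The 2 exceptions were the lid subunit Psmd3 at -0.12 and the ubiquitin receptor Psmd4 at -0.14. In the core, 2 of 7 alpha-ring genes (Psma1 at -0.18 and Psma7 at -0.17), 1 of 4 structural beta genes (Psmb3 at -0.23) and 2 of 3 constitutive catalytic genes (Psmb5 and Psmb7) had an unadjusted p under 0.05. Whether the cap and the core differed in their response was not tested.

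In 10 members the 2 liver groups did not overlap, all with VAT removal lower, which is 20.8% of the members where 1.67% of all genes tested did so. They were Psmb3, Psmc2, Psmc4, Psmd2, Psmd7, Psmd12, Psmd14, Psmd5, Pomp and Psme4. Without sham liver library 2 the count was 17, but the share over all genes was not computed there, and fewer libraries make separation easier for any gene.

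**Figure D2:**
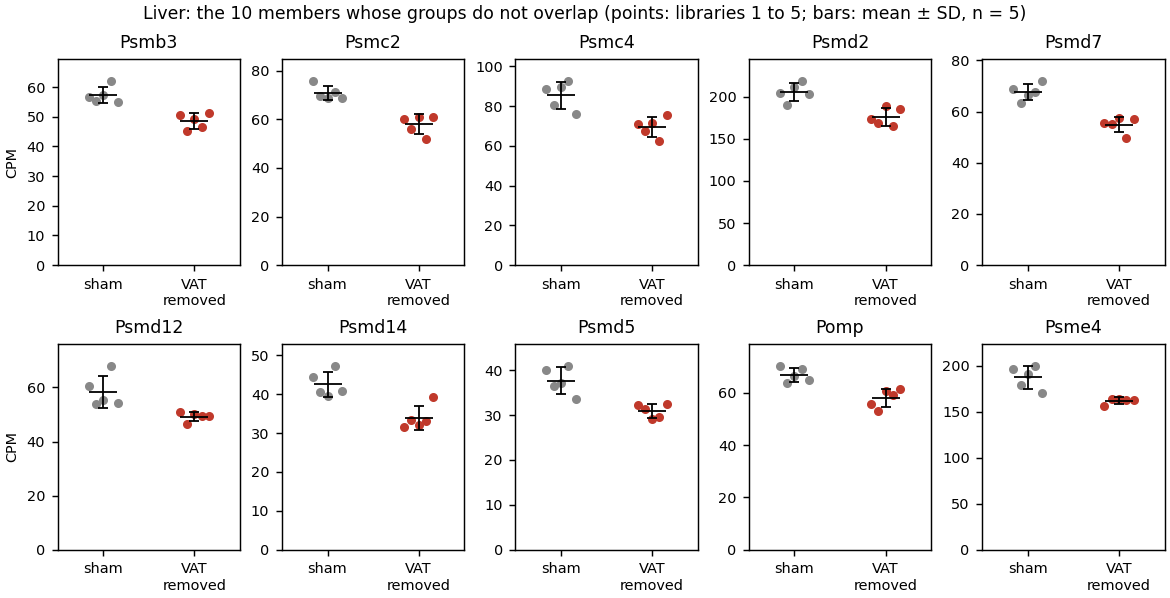
CPM in the 5 sham and 5 VAT-removed liver libraries is plotted for the 10 members whose groups did not overlap. Points are libraries and bars are the mean ± SD. Every sham library lies above every VAT-removed library in each panel, as for Psmd14 with means of 42.5 and 33.9 CPM.

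Psmd14, the metalloprotease of the cap that cuts ubiquitin chains from substrates, had the largest decrease of the family in liver. Its sham libraries were at 44.4, 40.6, 39.6, 47.3 and 40.9 CPM and its VAT-removed libraries at 31.4, 33.4, 32.1, 33.1 and 39.4 CPM. Library 5 of the VAT-removed group came within 1 CPM of the lowest sham library and the other 4 lay well below it. The log2 difference was -0.32 ± 0.07 (SE; edgeR unadjusted p = 0.00106, adjusted p = 0.253), and all 5 VAT-removed libraries lay below the sham mean. Psmd7, the cap subunit that pairs with Psmd14, had the smallest p of the family. Its sham libraries were at 68.9, 63.5, 66.4, 67.7 and 71.8 CPM and its VAT-removed libraries at 55.4, 55.0, 57.4, 49.8 and 56.9 CPM. The groups were well apart, and the log2 difference was -0.29 ± 0.06 (SE; edgeR unadjusted p = 0.000627, adjusted p = 0.233).

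Psmc2, an ATPase of the cap, was at 75.7, 69.6, 69.0, 71.3 and 68.8 CPM in sham liver and at 60.2, 56.0, 61.1, 52.0 and 61.1 CPM after VAT removal. All VAT-removed libraries were below all sham libraries, with a log2 difference of -0.28 ± 0.06 (SE; edgeR adjusted p = 0.254). Adrm1, a ubiquitin receptor of the cap, was at 110.5, 80.0, 95.8, 98.6 and 85.9 CPM in sham liver and at 82.1, 77.1, 83.4, 70.9 and 73.7 CPM after VAT removal. Sham library 2 lay within the VAT-removed range, so the groups overlapped, and the log2 difference was -0.27 ± 0.09 (SE; edgeR adjusted p = 0.362).

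Of the catalytic genes, Psmb5, which carries the chymotrypsin-like site, was at 48.1, 41.8, 47.96, 49.4 and 43.7 CPM in sham liver and at 35.2, 38.6, 37.7, 37.5 and 42.0 CPM after VAT removal. VAT-removed library 5 passed sham library 2, and otherwise the groups were apart. The log2 difference was -0.26 ± 0.06 (SE; edgeR adjusted p = 0.256). Psmb7, the trypsin-like subunit, had means of 93.2 ± 8.85 and 81.6 ± 6.13 CPM (SD, n = 5 each) and a difference of -0.18 ± 0.08 (SE). Psmb6, the caspase-like subunit, had means of 95.1 ± 3.35 and 90.7 ± 5.64 CPM (SD, n = 5 each), and its difference of -0.06 ± 0.06 was within its error.

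Of the 3 inducible catalytic genes, 0 had an unadjusted p under 0.05 in liver. Psmb8 was at 15.8, 23.5, 18.3, 15.2 and 33.6 CPM in sham liver and at 18.5, 16.7, 15.8, 17.2 and 24.6 CPM after VAT removal. Psmb9 was at 20.0, 18.6, 22.5, 18.2 and 42.4 CPM in sham and at 20.0, 23.0, 18.8, 21.2 and 31.8 CPM after VAT removal. Psmb10 was at 26.3, 34.1, 29.3, 27.2 and 42.1 CPM in sham and at 43.3, 27.6, 26.7, 36.5 and 42.5 CPM after VAT removal. In all 3 genes the highest sham library was library 5, the one with high interferon-response genes, and the groups overlapped. The log2 differences were -0.19 ± 0.22 for Psmb8, -0.08 ± 0.25 for Psmb9 and 0.16 ± 0.17 for Psmb10 (SE). Without sham library 5 they were 0.04 ± 0.16, 0.23 ± 0.14 and 0.29 ± 0.16, so the sign turned for Psmb8 and Psmb9. The part of the interferon-response genes in these values was not tested. Without that library the family as a whole had 38 lower and 10 higher members, a median of -0.16 and 22 members lower at an unadjusted p under 0.05.

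All 4 activators had a lower mean in VAT-removed liver, and 2 of them, Psme4 and Psme3, had an unadjusted p under 0.05. Psme4, the PA200 activator that is found mainly in the nucleus, was at 196.1, 179.2, 191.0, 200.1 and 170.9 CPM in sham liver and at 155.8, 164.4, 164.4, 162.8 and 162.6 CPM after VAT removal. The groups did not overlap, and the log2 difference was -0.20 ± 0.06 (SE; edgeR adjusted p = 0.315). Psme3, the nuclear PA28 gamma subunit, had means of 70.2 ± 3.69 and 62.5 ± 4.00 CPM (SD, n = 5 each) and a difference of -0.16 ± 0.07 (SE). Psme1 and Psme2, the interferon-inducible PA28 alpha and beta subunits, had differences of -0.03 ± 0.13 and -0.05 ± 0.11, within their errors. Whether the activators differed from each other was not tested.

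Among the assembly factors, Pomp, which guides maturation of the core, was at 70.4, 63.8, 66.5, 69.0 and 64.7 CPM in sham liver and at 55.8, 53.1, 60.8, 59.2 and 61.4 CPM after VAT removal. The groups did not overlap, with a log2 difference of -0.19 ± 0.06 (SE; edgeR adjusted p = 0.323). Psmd5, a chaperone of the cap base, had a difference of -0.27 ± 0.07, while the base chaperones Psmd9 and Psmd10 were at -0.01 and 0.05. None of the 4 chaperones of the alpha ring had an unadjusted p under 0.05: Psmg1 was at 0.04 ± 0.08, Psmg2 at -0.10 ± 0.12, Psmg3 at 0.34 ± 0.24 and Psmg4 at 0.23 ± 0.13 (SE), with groups that overlapped in each. Psmg3, at 4.85 to 15.0 CPM in VAT-removed liver, varied most. Nfe2l1 RNA was at 263.5, 226.3, 274.0, 276.0 and 236.9 CPM in sham liver and at 277.5, 222.5, 209.6, 298.1 and 290.9 CPM after VAT removal. The groups overlapped over nearly their whole range, and the difference was 0.04 ± 0.11 (SE). These values are of Nfe2l1 RNA and carry no measure of the processed protein that acts in the nucleus.

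Genes that work beside the proteasome were read in the same liver fit, from lists that hold no member. Of 13 tested genes of other proteasome proteins, 3 were lower at an unadjusted p under 0.05 and 0 higher: the cap deubiquitinase Usp14 (-0.22 ± 0.06), the cap-bound thioredoxin-like protein Txnl1 (-0.22 ± 0.06) and the core regulator Psmf1 (-0.21 ± 0.06). Of 27 ubiquitin and shuttle genes, 7 were lower and 0 higher at this level, led by the shuttle factor Ubqln1 (-0.26 ± 0.07) and the ubiquitin-conjugating enzyme Ube2k (-0.23 ± 0.06). Of 16 NRF2-route genes, 9 were lower and 0 higher, among them Gclc, the catalytic subunit of the enzyme that limits glutathione synthesis, at -0.56 ± 0.11 (SE; edgeR adjusted p = 0.184). Of 22 interferon-response genes, 15 were lower and 0 higher, with a median of -1.29, and without sham liver library 5 these were 8 lower and 0 higher with a median of -0.43. Of 18 antigen-presentation genes, 1 was lower and 0 higher, and of 15 tested lymphocyte genes 4 were higher and 0 lower. The part of the interferon-response genes in the members' values was not tested. No gene of these lists reached an adjusted p of 0.05 in edgeR.

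In SAT after VAT removal, the members lay on both sides of sham. Of the 48 members, 30 had a higher and 18 a lower mean, with a median log2 difference of 0.02, against -0.00 over all 18530 genes tested, of which 49.7% were above 0. No member reached an adjusted p of 0.05 in edgeR (smallest adjusted p = 0.431), nor did any gene (0% called), and DESeq2 also called 0 members. At an unadjusted p under 0.05, 3 members were lower and 0 higher in edgeR, and 3 lower in DESeq2. These 3 are 6.25% of the members, where 6.27% of all genes tested were lower and 4.38% higher at this level, so the share is that of the background. They were Psmb8, Psmb9 and Psme1. Interferon-gamma induces these genes and also Psmb10 and Psme2, which did not pass this level.

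Psmb9 was at 18.9, 17.8, 33.1, 27.8 and 20.5 CPM in sham SAT and at 17.6, 13.3, 14.5, 12.4 and 17.6 CPM after VAT removal. Sham libraries 3 and 4 were the highest, and the lowest sham library lay just above the highest VAT-removed one. The log2 difference was -0.63 ± 0.19 (SE; edgeR unadjusted p = 0.00615, adjusted p = 0.431). Without sham libraries 3 and 4, which carry the lymphocyte genes, it was -0.33 ± 0.13 (edgeR unadjusted p = 0.0345, adjusted p = 0.561).

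Psmb8 was at 22.9, 20.9, 34.7, 34.5 and 23.3 CPM in sham SAT and at 22.5, 15.4, 15.7, 17.3 and 23.2 CPM after VAT removal. Again sham libraries 3 and 4 were the highest, and the other 3 sham libraries overlapped with VAT-removed libraries 1 and 5. The log2 difference was -0.52 ± 0.18 (SE; edgeR unadjusted p = 0.0175), and -0.24 ± 0.15 without sham libraries 3 and 4 (edgeR unadjusted p = 0.148).

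Psme1 was at 48.7, 47.2, 57.9, 56.7 and 51.1 CPM in sham SAT and at 42.5, 36.9, 41.5, 46.6 and 36.9 CPM after VAT removal. The groups did not overlap, although VAT-removed library 4 came close to sham library 2. The log2 difference was -0.34 ± 0.09 (SE; edgeR unadjusted p = 0.00295), and -0.25 ± 0.09 without sham libraries 3 and 4 (edgeR unadjusted p = 0.016). Psmb9 and Psme1 were the 2 members whose SAT groups did not overlap, 4.17% of the members where 0.788% of all genes tested did so in this direction. Scaled by total counts, the number was 0.

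Psmb10, the third inducible subunit, had means of 32.1 ± 2.98 CPM in sham and 30.3 ± 2.33 CPM in VAT-removed SAT (SD, n = 5 each). Its sham libraries 3 and 4, at 30.3 and 32.7 CPM, were not raised, and its difference of -0.07 ± 0.09 was within its error. Psme2, the partner of Psme1, was at -0.11 ± 0.07 (SE). Psmb8 and Psmb9 lie in the major histocompatibility complex on chromosome 17 beside the peptide transporter genes Tap1 and Tap2. Psmb9 (chr17:34181987-34187764, minus strand) shares 212 exonic bases with Tap1 on the opposite strand, and no source used here gives the strand setting of the counting, so reads from those bases cannot be told apart. Tap1 itself was at 43.0, 35.5, 97.5, 88.6 and 54.0 CPM in sham SAT and at 41.6, 27.7, 31.3, 31.1 and 39.7 CPM after VAT removal. Its highest libraries were the same sham libraries 3 and 4. On the opposite strand, Psmb8 shares 498 exonic bases with the antisense gene Gm20496 and Psmb7 shares 405 with Nek6. Psmb5 shares 109 with the microRNA gene Mir686 on its own strand. The counts of these catalytic genes, and ratios made from them, are uncertain to that extent.

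**Figure D3:**
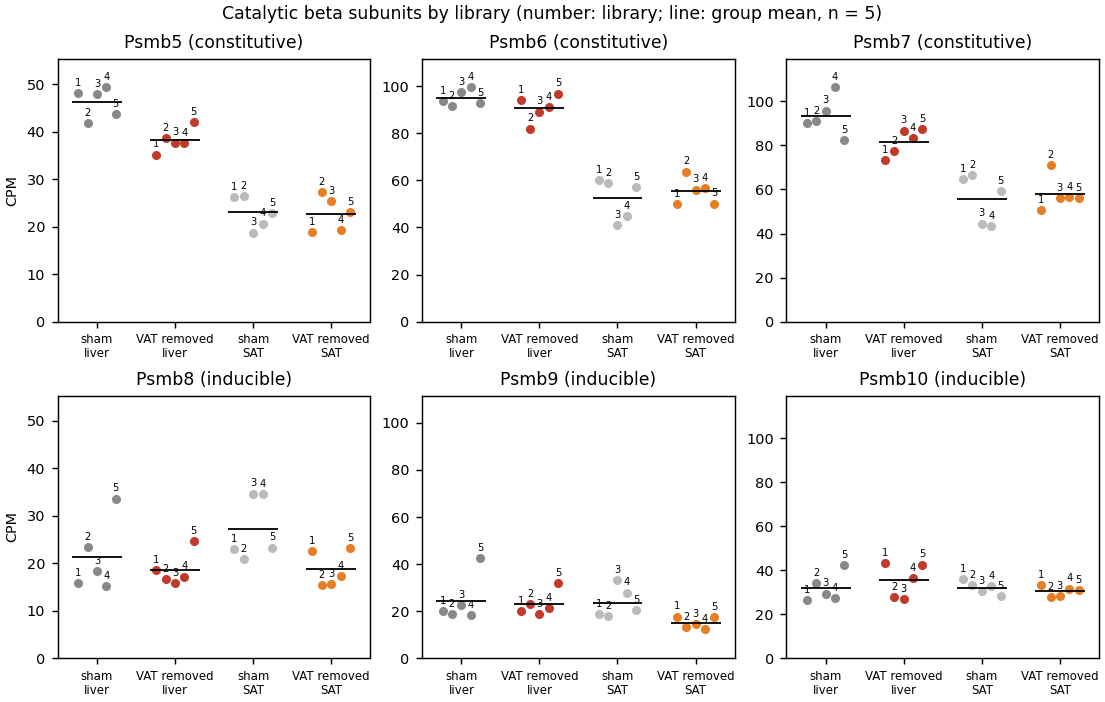
CPM of the 3 constitutive catalytic subunits (top) and of the inducible subunit that replaces each (bottom) is plotted for every library, numbered within its group, with the group mean as a line. Psmb8 and Psmb9 are highest in sham SAT libraries 3 and 4 within SAT and in sham liver library 5 within liver, and Psmb6 and Psmb7 are lowest in sham SAT libraries 3 and 4.

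The constitutive genes ran in the opposite direction in those same libraries. In the mean log2 CPM of the 32 constitutive subunits, sham SAT libraries 1 to 5 were at 5.74, 5.79, 5.38, 5.41 and 5.66. VAT-removed SAT libraries 1 to 5 were at 5.48, 5.84, 5.65, 5.57 and 5.61. Sham libraries 3 and 4 were the lowest of the 10, and VAT-removed library 2, which held the most skeletal muscle RNA, was the highest. Without sham libraries 3 and 4, 41 members were lower and 7 higher after VAT removal, with a median of -0.09 against 0.01 over all genes. In that fit 3 members had an unadjusted p under 0.05 in edgeR (Psme1, Psmd5 and Psmb9), and the share of all genes at this level is not given here. The sign of the family's median in SAT therefore turned with these libraries. Without the 4 libraries that held the most muscle RNA (sham 2 and VAT-removed 1, 2 and 3) the median was 0.04. The part of lymphocyte and muscle RNA in these values was not tested.

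**Figure D4:**
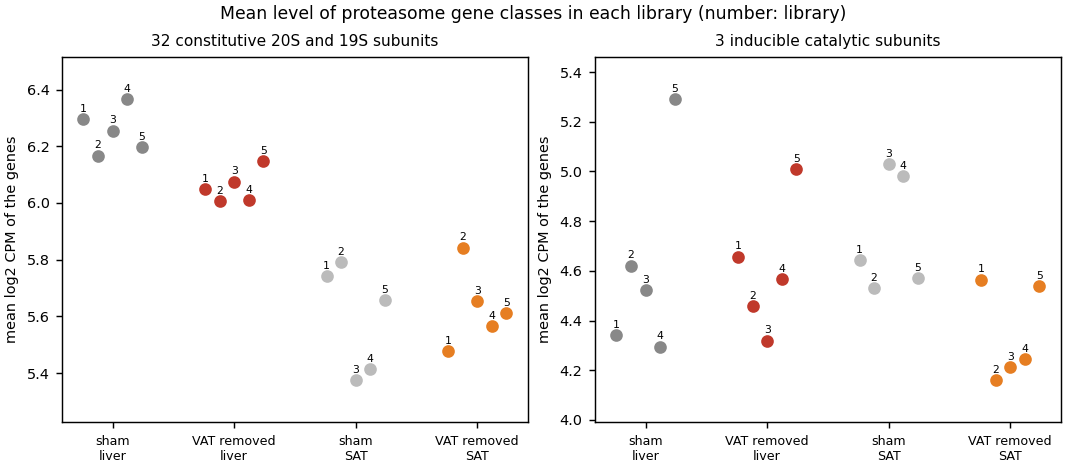
The mean log2 CPM of the 32 constitutive core and cap subunits (left) and of the 3 inducible catalytic subunits (right) is plotted for each library, numbered within its group. The 2 liver groups do not overlap on the left. Sham SAT libraries 3 and 4 are lowest in SAT on the left (5.38 and 5.41) and highest in SAT on the right (5.03 and 4.98).

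No constitutive core or cap subunit had an unadjusted p under 0.05 in SAT. The smallest unadjusted p among those with a higher mean was that of the lid subunit Psmd11, at 0.16 ± 0.09 (SE; edgeR unadjusted p = 0.101), followed by Psmd9 at 0.15 ± 0.09, Psmd3 at 0.12 ± 0.09 and Psmd6 at 0.18 ± 0.13. Psmb5, Psmb6 and Psmb7 were at -0.00 ± 0.14, 0.09 ± 0.12 and 0.08 ± 0.14. Psmd14 and Adrm1 were at -0.03 ± 0.09 and 0.01 ± 0.11, and Pomp at 0.10 ± 0.10. Psme3 was at -0.02 ± 0.08 and Psme4 at 0.14 ± 0.13. Nfe2l1 was at 534.1, 638.9, 394.4, 374.0 and 599.5 CPM in sham SAT and at 453.6, 571.0, 600.0, 488.0 and 528.3 CPM after VAT removal. Sham libraries 3 and 4 were the lowest of the 10, and the difference turned from 0.07 ± 0.17 to -0.15 ± 0.11 (SE) without them.

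Of the antigen-presentation genes read beside the inducible subunits, 5 of 18 were lower and 0 higher in SAT at an unadjusted p under 0.05, among them Tap1 (-0.88 ± 0.27). Without sham libraries 3 and 4 the antigen-presentation genes lower at this level numbered 2. Of 22 interferon-response genes, 10 were lower and 1 higher, with 20 lower and 1 higher without sham libraries 3 and 4, and 6 lower and 1 higher without sham library 5. All 16 lymphocyte genes were lower at this level, with a median of -4.08, and 0 were without sham libraries 3 and 4. Of 27 ubiquitin and shuttle genes, 2 were higher and 0 lower.

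The ratio of an inducible to its constitutive partner, taken within a library, does not depend on how libraries are scaled. The contrast was part of how the family was proposed, so it is described without a test. In liver the ratio of Psmb8 to Psmb5 counts was 0.328, 0.561, 0.382, 0.308 and 0.769 in sham libraries 1 to 5 and 0.526, 0.432, 0.419, 0.458 and 0.587 in VAT-removed libraries. The groups overlapped, and the mean log2 ratio differed by 0.12, with between-library SDs of 0.56 and 0.20. For Psmb9 against Psmb6 the liver difference was 0.04, and for Psmb10 against Psmb7 it was 0.33, with overlap in both pairs.

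In SAT the ratio of Psmb8 to Psmb5 counts was 0.872, 0.787, 1.85, 1.67 and 1.02 in sham and 1.20, 0.567, 0.617, 0.902 and 1.01 after VAT removal. That of Psmb9 to Psmb6 was 0.313, 0.302, 0.809, 0.620 and 0.359 in sham and 0.354, 0.209, 0.258, 0.219 and 0.350 after VAT removal. In both pairs sham libraries 3 and 4 were the highest and the remaining libraries overlapped. The differences in mean log2 ratio were -0.50 and -0.71, and -0.11 and -0.26 without those 2 libraries. For Psmb10 against Psmb7 the difference went from -0.16 to 0.04.

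Whether a member responded differently in SAT and liver was tested as 1 term in the fit of all 20 libraries (SAT difference minus liver difference). No member reached an adjusted p of 0.05 in edgeR (smallest adjusted p = 0.344), nor did any of 19954 genes (0% called), and DESeq2 called 0 members. The median over the members was 0.17, against -0.03 over all genes. At an unadjusted p under 0.05, 11 members were higher (22.9%, where 3.61% of all genes were) and 1 was lower (6.51% of all genes), and DESeq2 gave the same counts. The members with the smallest p were Psmd11 (0.40 ± 0.13), Psmc2 (0.41 ± 0.14), Psmd7 (0.36 ± 0.13) and Psmd6 (0.38 ± 0.15), all of the cap. The 1 lower member was the chaperone Psmg4 (-0.44 ± 0.18), followed without passing by Psme1 (-0.32 ± 0.17), Psmb9 (-0.56 ± 0.32) and Psmg1 (-0.16 ± 0.11). Without sham SAT libraries 3 and 4 the members at an unadjusted p under 0.05 numbered 3, and without VAT-removed SAT library 2 they numbered 2. This term shares its liver and SAT libraries with the comparisons above and adds no separate evidence.

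Between the tissues, the family was low in SAT relative to other genes. In sham mice 38 members were called lower and 1 higher in SAT than in liver at an adjusted p of 0.05 in edgeR, which is 79.2% lower where 30.6% of all genes tested were called lower and 36.5% higher. The median log2 difference (SAT minus liver) of the 48 was -0.66, against 0.11 over all genes. In VAT-removed mice 35 were called lower and 1 higher (72.9% lower, where 32.2% of all genes were called lower and 33% higher), with a median of -0.41 against 0.00. Without sham SAT libraries 3 and 4, 34 were called lower and 1 higher in sham, with a median of -0.50 against 0.05 over all genes. The share of all genes called in that fit is not given here.

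The direction of these calls depends on the scaling. The TMM factors were 0.752 to 0.891 in liver and 1.07 to 1.36 in SAT, and scaling by total counts moved the all-gene median to 0.73 in sham and 0.53 in VAT-removed mice. On that scale 16 members were called higher and 13 lower in sham mice (median -0.05), and 18 higher and 10 lower in VAT-removed mice (median 0.10). The shares of all genes called in each direction on that scale are not given here, so these counts have no background beside them. The members' median relative to all genes was nearly the same on both scales, at -0.77 in sham and -0.42 in VAT-removed mice. Rescaling shifts members and all genes nearly alike, so this match is no separate evidence. On the TMM scale 46 of 48 members lay below the all-gene median in sham and 43 of 48 in VAT-removed mice. The differences in the text below are on the TMM scale unless stated. They are not reduced by the all-gene median, which was 0.11 in sham and 0.00 in VAT-removed mice.

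**Figure D5:**
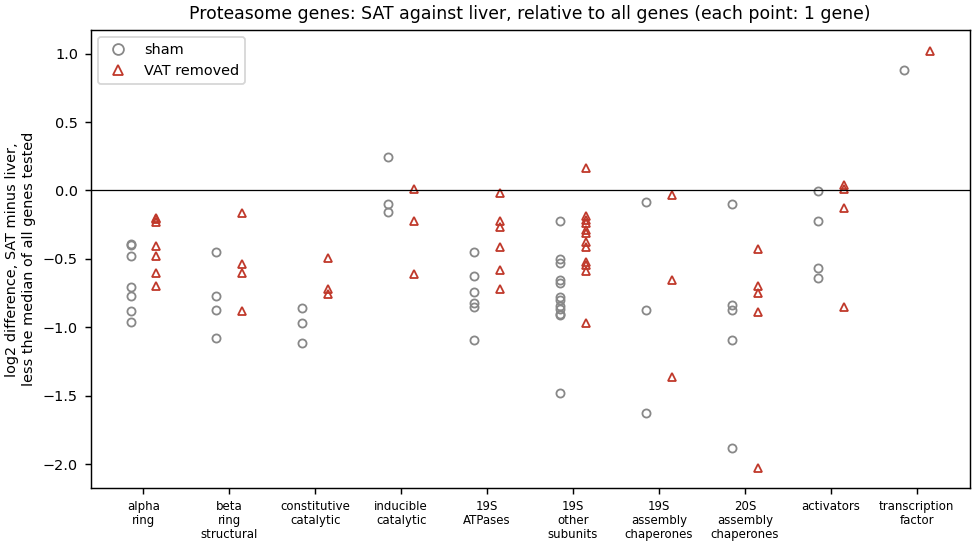
The log2 difference between SAT and liver less the median of all genes tested is plotted for each member by class, in sham (circles) and VAT-removed mice (triangles). Nfe2l1 is the highest point in both, Psmg3 the lowest in both, and the inducible catalytic genes lie above the constitutive catalytic genes in sham mice.

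The members furthest below liver in sham SAT were the chaperones Psmg3 (-1.77 ± 0.23) and Psmd9 (-1.52 ± 0.09), the lid subunit Psmd11 (-1.37 ± 0.09) and Psmb5 (-1.005 ± 0.11), each with an adjusted p of at most 1.5e-06 in edgeR. Psmd9 was at 37.5, 34.2, 43.7, 42.2 and 31.6 CPM in sham liver and at 14.8, 13.9, 13.4, 11.3 and 12.7 CPM in sham SAT. The 2 tissues were far apart, as they were in VAT-removed mice (-1.36 ± 0.09). Psmd9 shares 1849 exonic bases with a non-coding gene on the opposite strand, and Psmg3 shares 280 with a gene model on its own strand, so their counts are uncertain. Psmd11 shares none and was at 177.5, 127.3, 154.4, 168.6 and 140.5 CPM in sham liver and at 59.6, 67.0, 53.9, 54.0 and 63.3 CPM in sham SAT. Its ranges were far apart, and its difference was -0.96 ± 0.09 in VAT-removed mice. Pomp (-0.98 ± 0.08), the ATPase Psmc4 (-0.98 ± 0.09) and Psmb4 (-0.97 ± 0.08) followed in sham mice. In VAT-removed mice Psmg3 (-2.02 ± 0.23) and Psmg1 (-0.88 ± 0.08) were among the 4 largest. Psmg3, Psmd9, Psmd11, Psmb5, Psmb4, Pomp and Psmg1 also had negative differences under total-count scaling, from -0.12 for Psmg1 to -1.16 for Psmg3 in sham mice.

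Nfe2l1 was the 1 member called higher in SAT, at 0.99 ± 0.15 in sham mice (SE; edgeR adjusted p = 7.7e-06) and 1.02 ± 0.15 in VAT-removed mice (adjusted p = 5.3e-06). Its level ran from 226.3 to 276.0 CPM over the sham liver libraries and from 374.0 to 638.9 CPM over the sham SAT libraries, with no overlap. The genes it is known to drive were thus lower relative to other genes in the tissue with more Nfe2l1 RNA, which is a description of RNA levels alone.

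With all libraries and TMM scaling, none of the inducible catalytic genes was called between the tissues in sham mice. There Psmb8, Psmb9 and Psmb10 differed by 0.36 ± 0.21, -0.04 ± 0.23 and 0.01 ± 0.14, where all 3 of Psmb5, Psmb6 and Psmb7 were called lower (-1.005, -0.86 and -0.74; Psmb7 was not called under total-count scaling). In VAT-removed mice Psmb9 was called lower in SAT (-0.61 ± 0.23; edgeR adjusted p = 0.026) and the other two were at 0.02 ± 0.21 and -0.22 ± 0.14. The Psmb9 call was lost without VAT-removed liver library 5 (-0.46, adjusted p = 0.0913), SAT library 2 (-0.53, adjusted p = 0.0594) or SAT library 4 (-0.54, adjusted p = 0.0634), and under total-count scaling (-0.081, adjusted p = 0.799). Without sham SAT libraries 3 and 4 the sham values were 0.12, -0.31 and 0.08, again with none called. Without sham liver library 5 they were 0.58, 0.25 and 0.13, and Psmb8 was called higher in SAT (edgeR adjusted p = 0.0123). Under total-count scaling Psmb8 (0.96, adjusted p = 0.00223) and Psmb10 (0.61, adjusted p = 0.00317) were called higher. The ratio of Psmb8 to Psmb5 counts ran from 0.308 to 0.769 over the 10 liver libraries and from 0.567 to 1.85 over the 10 SAT libraries, with overlap. A test between the inducible and constitutive classes was not run.

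The activators were not all called alike between tissues, and whether they differed from each other was not tested. Psme1 was called lower in SAT in sham (-0.53 ± 0.12) and VAT-removed mice (-0.85 ± 0.12), while Psme2, which forms the same ring, was at 0.11 ± 0.09 and 0.05 ± 0.09 and was not called. Psme3 was at -0.11 ± 0.07 and 0.02 ± 0.07, and Psme4 was called lower in sham mice (-0.45 ± 0.10) and not in VAT-removed mice (-0.12 ± 0.10). Of the 12 cap subunits that are not ATPases, 11 were called lower in SAT in sham mice. The exception was Psmd14, at -0.11 ± 0.09 in sham and 0.17 ± 0.09 in VAT-removed mice, where it was called higher without liver library 5 (0.23, edgeR adjusted p = 0.0274). Under total-count scaling Psme1 and Adrm1 had higher means in SAT than in liver in sham mice, without a call. On that scale Psme4 was called higher in SAT in sham (0.15, edgeR adjusted p = 0.0387) and VAT-removed mice (0.39, adjusted p = 2.3e-05). Adrm1 was called higher in VAT-removed mice (0.22, edgeR adjusted p = 0.019), where Psme1 was not called (-0.32, adjusted p = 0.0659). Psme2, Psme3 and Psmd14 were called higher in both sham and VAT-removed mice.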

How the data were processed

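The authors deposited 1 table of gene counts for 20 libraries. The submitters' processing notes list bcl2fastq, STAR 2.5.1a, Subread, featureCounts 1.46 and GRCm38, and no source used here gives the annotation, the strand setting or the treatment of multi-mapped reads. Of 40757 entries in the deposited count table, 317 exact repeats were dropped. All value columns were mapped to a sample by name.

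Tests used edgeR 4.0.16 (R 4.3.3): TMM normalization, filterByExpr by group, a robust quasi-likelihood fit and Benjamini-Hochberg adjustment over all genes tested, with a threshold of 0.05. Liver and SAT were fitted separately (5 against 5 libraries), and tissue differences and the difference in response in 1 fit of all 20. SE is the log2 difference over the square root of F. Tests were checked on simulated data, and no 2 libraries were identical. Alternatives were RLE and total-count scaling, no filter or a stricter one (1 CPM in 5 libraries), DESeq2 1.42.0 and limma-voom (limma 3.58.1). Others were a replicate block, 1 fit of all libraries, a fit of the 2 groups only, and leaving out libraries. Total-count scaling, the comparison of ranges, the counts at an unadjusted p and the muscle-rich libraries were added after the data were seen. The members and lists were chosen with earlier results of these data known. Named by rule were the catalytic genes, activators, Nfe2l1, Pomp, Adrm1 and Psmd14, the 4 largest differences in each direction among called members, the 4 smallest p in each direction, and up to 4 genes of each other list. The other names, such as members whose groups do not overlap, were chosen after their values were seen. Libraries with the same number did not deviate together in every pair (correlations from -0.26 to 0.36), so numbers were not taken to pair them. Gene positions are from GENCODE M21 (GRCm38).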

Additional observations from a re-analysis of the deposited data

Results flagged for a closer look

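Within a group of 5 libraries, the highest or lowest library was set apart from the rest in 8 of 204 series of values searched (48 members and 3 ratios in 4 groups), by Dixon's criterion of a gap over 0.71 of the range of the log2 values. Chance gives about 5% of such groups, and 8 of 204 is below that share, so the values below are described only.

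In sham liver, library 5 had Psmb9 at 42.4 CPM against 18.2 to 22.5 CPM in the other 4, and a log2 ratio of Psmb9 to Psmb6 of -1.13 against -2.45 to -2.11. It is the library with high interferon-response genes, whose part was not tested. Sham liver library 2 had the ATPase Psmc5 at 56.2 CPM against 61.7 to 63.5 CPM. In VAT-removed liver, library 5 had Psma1 at 68.8 CPM against 59.7 to 61.8 CPM and Psmd14 at 39.4 CPM against 31.4 to 33.4 CPM, and library 1 had Psme4 at 155.8 CPM against 162.6 to 164.4 CPM. In VAT-removed SAT, library 2, which held the most skeletal muscle RNA, had Psma5 at 30.2 CPM against 21.6 to 23.7 CPM and Psmb1 at 65.7 CPM against 57.0 to 58.9 CPM.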

How the results depend on the processing

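Of 93 named member results, 5 that were called in the main fit turned in sign under an alternative. All 5 were under total-count scaling between tissues: Psme1 0.080, Psme4 0.15 and Adrm1 0.042 in sham mice, and Psmb7 0.023 and Adrm1 0.22 in VAT-removed mice. Sign turns of uncalled results were not counted, and some occurred, as for Psmb8 and Psmb9 in liver without sham liver library 5. Over all alternatives, 12 values lost and 17 gained a call, and 38 uncalled ones moved by at least their SE without a call. Counts, medians and ratios held in 357 alternatives and moved in 17. Held means a count within a set factor of the main one, or a median or ratio shifted by less than the SD between libraries (0.095 for medians). Counts of 0 in both fits were also taken as held. A held median could turn in sign, as the SAT median did without sham SAT library 4 (-0.03) and under total-count scaling (-0.060). DESeq2 called 9 members in liver where edgeR called 0; the cause was not tested. Total-count scaling gave 5 members at an unadjusted p under 0.05 in SAT, 0 with separate SAT groups (1 with TMM within the tissue), and tissue medians of -0.048 in sham and 0.10 in VAT-removed mice. Without sham SAT libraries 3 and 4 the medians were -0.092 in SAT, 0.065 for the response difference and -0.50 between sham tissues, 3 members had an unadjusted p under 0.05 in the response difference, and 4 had separate groups in SAT. Leaving out 1 library at a time gave 2 (without VAT-removed SAT library 2) to 17 (without sham liver library 5) members at an unadjusted p under 0.05 in the response difference, 5 without sham SAT library 4, 6 without sham SAT library 3, and 7 without VAT-removed liver library 2. It gave 10 to 17 members with separate groups in liver and a SAT median of -0.03 to 0.07. The share of all genes with separate groups was computed in the main setting only, and fewer libraries make separation easier for any gene. The fit with the replicate block gave 0 calls in liver, SAT and the response difference, and 6 members at an unadjusted p under 0.05 in the response difference. It gave 39 and 32 calls between sham and between VAT-removed tissues, where the main fit called 67.1% and 65.2% of all genes. The shares of all genes in this and the other alternative fits are not given here, so their counts have no background beside them. In the VAT-removed liver and SAT libraries, 5 of 5 correlated best with their own number, a hint from the data and not the design. With 5 libraries a group the median SE of a member was 0.07 in liver and 0.11 in SAT (log2), and in edgeR none of the members' surgery differences, -0.32 to 0.34 in liver and -0.63 to 0.18 in SAT, passed an adjusted p of 0.05.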
